A study of Mus musculus with 32 samples.

Results

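Perilipins and CIDE proteins coat lipid droplets, the organelles in which cells store triglyceride. All 8 mouse genes of these families were followed, the 5 perilipins Plin1 to Plin5 and the 3 CIDE genes Cidea, Cideb and Cidec. They were picked by gene symbol, 8 of the 54532 genes in the table, and each symbol occurred once. The values are FPKM (reads scaled to gene length and to 1 size per library), so levels can be compared between genes of a library. RNA was sequenced from liver, from BAT (the intrascapular brown fat depot), from eWAT (epididymal, a visceral white depot) and from iWAT (inguinal, a subcutaneous white depot). Each tissue had 4 auranofin and 4 vehicle libraries, 32 in all. Every animal was a wild-type C57/Bl6j mouse that ate a 60% fat diet for 12 weeks, so no lean animals are in the comparison. For another 4 weeks the mice were dosed 3 times weekly, with auranofin at 1 mg/kg body weight or with vehicle alone. Auranofin is a gold compound used against rheumatoid arthritis, and thioredoxin reductase is its known target. Sex and age are not given in the sources used here. Nothing in the labels says that libraries came from separate animals, so p-values measure only the spread between these libraries.

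Perilipins control the access of lipases to the droplet. In adipocytes PLIN1 holds the lipase activator ABHD5 until protein kinase A phosphorylates it, and PLIN2 coats droplets in most other cells. CIDE proteins sit where droplets touch and pass lipid from the smaller droplet to the larger, which in white adipocytes leaves a large central droplet. Several of these genes are known targets of the nuclear receptors PPAR-gamma and PPAR-alpha.

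Reads on genes numbered 13606756 to 19205640 per library. The library size behind the FPKM was 0.694 to 0.765 times those reads in liver, 0.854 to 1.006 times in BAT, 1.144 to 1.41 times in eWAT and 1.022 to 1.331 times in iWAT. Levels set across tissues and groups therefore carry a scaling between libraries that is not given in the sources used here. The TPM scale puts equal totals in its place. It moved the median of all genes in vehicle liver minus eWAT from 0.037 to -0.98, so it is a second scale and not a corrected one. Adipoq, which encodes the adipocyte hormone adiponectin, was at 0 in 7 of the 8 liver libraries and at 0.132 FPKM in vehicle library 4. Ucp1, whose protein uncouples brown fat mitochondria to make heat, had 2279 to 4145 FPKM in auranofin and 1697 to 2931 FPKM in vehicle BAT, and no more than 0.441 FPKM in any white fat library. Some libraries stood apart. In iWAT, FPKM summed over all genes was 275614, 368676, 259520 and 261976 with auranofin, against 340536 to 369437 with vehicle, so that auranofin library 2 alone lay in the vehicle range. In eWAT, vehicle libraries 1 and 2 had the highest macrophage marker sums. Skeletal muscle markers summed to 946 FPKM in auranofin and 1637 in vehicle library 4 of iWAT, against at most 34.7 in the others, and to between 4.41 and 3182 FPKM over the BAT libraries.

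The members lie on 6 chromosomes of the mouse build mm10. Plin1 (ENSMUSG00000030546) is at chr7:79720218-79732903, Plin2 (ENSMUSG00000028494) at chr4:86648386-86670060 and Cidec (ENSMUSG00000030278) at chr6:113424634-113435760. 3 perilipins share chromosome 17: Plin4 (ENSMUSG00000002831) at chr17:56100591-56109803, Plin5 (ENSMUSG00000011305) at chr17:56111601-56117596 and Plin3 (ENSMUSG00000024197) at chr17:56277476-56292873. Plin4 and Plin5 are neighbours, 1797 bases apart on the minus strand, and Plin3 lies 159879 bases from Plin5. Cideb (ENSMUSG00000022219), at chr14:55754050-55758458, shares 1136 of its 1488 exonic bases with Nop9 on the other strand. The library kit keeps no strand, and how reads on the shared bases were counted is not given in the sources used here, so Cideb values are uncertain. Plin4 shares 17 exonic bases with Hdgfl2.

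Promoter sequences from RefSeq (build GRCm38.p6) were used for 7 of the 8 genes (all but Cidea) in 9 windows, each of the 250 bases before a transcription start. They were searched on both strands for AGGTCA (a letter run that nuclear receptors bind), 2 copies of AGGTCA in a row with 1 base between (the element that PPARs bind), TTGCNNAA (a C/EBP motif, of the factors that drive adipocyte differentiation) and CCAAT. Plin1, Plin2, the neighbours Plin4 and Plin5, and the downstream of the 2 Cidec starts, 996 bases after the other, are printed, to show where the matches lie. Letters run from 5′ to 3′ along the gene, all on the minus strand, and capitals mark motif matches.
Plin1, chr7:79732777-79733026: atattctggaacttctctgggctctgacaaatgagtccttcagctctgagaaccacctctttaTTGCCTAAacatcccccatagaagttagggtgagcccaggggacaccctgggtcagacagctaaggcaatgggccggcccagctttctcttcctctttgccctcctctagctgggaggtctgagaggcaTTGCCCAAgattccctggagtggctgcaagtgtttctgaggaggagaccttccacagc
Plin2, chr4:86670060-86670309: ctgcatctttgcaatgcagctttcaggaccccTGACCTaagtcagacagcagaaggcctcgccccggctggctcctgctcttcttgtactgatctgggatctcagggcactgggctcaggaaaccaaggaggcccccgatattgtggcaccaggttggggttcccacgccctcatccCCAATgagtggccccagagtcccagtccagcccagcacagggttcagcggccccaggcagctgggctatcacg
Plin4, chr17:56109783-56110032: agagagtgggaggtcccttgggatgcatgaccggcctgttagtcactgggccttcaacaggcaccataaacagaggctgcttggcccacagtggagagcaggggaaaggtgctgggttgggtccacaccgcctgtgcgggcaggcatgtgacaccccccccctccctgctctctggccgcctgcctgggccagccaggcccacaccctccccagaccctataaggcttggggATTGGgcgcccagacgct
Plin5, chr17:56117549-56117798: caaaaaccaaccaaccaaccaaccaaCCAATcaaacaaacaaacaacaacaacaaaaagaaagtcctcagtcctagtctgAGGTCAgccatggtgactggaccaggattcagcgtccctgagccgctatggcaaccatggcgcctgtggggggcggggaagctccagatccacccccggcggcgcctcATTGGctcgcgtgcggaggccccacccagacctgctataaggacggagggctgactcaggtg
Cidec, chr6:113434765-113435014: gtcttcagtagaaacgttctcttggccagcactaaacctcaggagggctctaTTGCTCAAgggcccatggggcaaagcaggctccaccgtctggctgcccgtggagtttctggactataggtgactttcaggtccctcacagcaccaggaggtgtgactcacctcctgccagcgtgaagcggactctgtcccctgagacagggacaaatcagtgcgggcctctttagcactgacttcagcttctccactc
TTGCNNAA occurred in Plin1, 187 and 58 bases before the start, and 198 bases before the downstream Cidec start. It was in 2 of the 9 windows, and 9.56% of 32851 mouse windows of the same length hold it. AGGTCA occurred in Plin2, 218 bases before the start on the reverse strand, and in Plin5, 170 bases before it, against 14.0% of all windows. CCAAT was found in Plin2, Plin3, Plin4 and Plin5, and 33.8% of all windows hold it. The doubled element was in none of the 9 windows and in 0.0335% of all. A match describes these letters and does not show binding.

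The make-up of each family differed between tissues, as the plot of family shares shows. Among CIDE transcripts, Cidec made up 99.5% ± 0.272 of the summed FPKM in auranofin and 99.7% ± 0.179 in vehicle eWAT, and 99.4% ± 0.290 in auranofin and 99.2% ± 0.389 in vehicle iWAT (SD, n = 4 each). In BAT, Cidea took 77.2% ± 2.22 with auranofin and 73.3% ± 2.001 with vehicle, and Cidec held nearly all of the rest. In liver, Cideb had the highest mean share, 57.7% ± 17.4 with auranofin and 49.4% ± 23.1 with vehicle. It was the highest CIDE gene in all 4 auranofin livers and in 2 of 4 vehicle livers, against Cidea in vehicle library 2 and Cidec in vehicle library 3. Cideb FPKM is scaled to all 1488 exonic bases, of which 1136 are shared with Nop9. If reads on the shared bases were not counted, Cideb is understated, so these shares and ranks in liver are uncertain. The share of Cidea ranged from 0.785% to 29.96% with auranofin and from 4.76% to 46.4% with vehicle. Among perilipins, Plin2 made up 69.4% ± 5.61 of auranofin and 77.3% ± 3.46 of vehicle liver transcripts. In BAT, Plin2 and Plin1 led with 42.5% ± 3.79 and 30.4% ± 2.38 in vehicle libraries. In iWAT, Plin4 and Plin1 led with 36.6% ± 3.36 and 35.3% ± 2.14 in vehicle libraries. In eWAT, Plin1 took 36.2% ± 4.33 with auranofin and 25.1% ± 7.11 with vehicle, and Plin2 20.9% ± 5.83 with auranofin and 40.6% ± 18.2 with vehicle. Plin3 never made up more than 5.53% of the perilipin sum in a library.

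**Figure D1:**
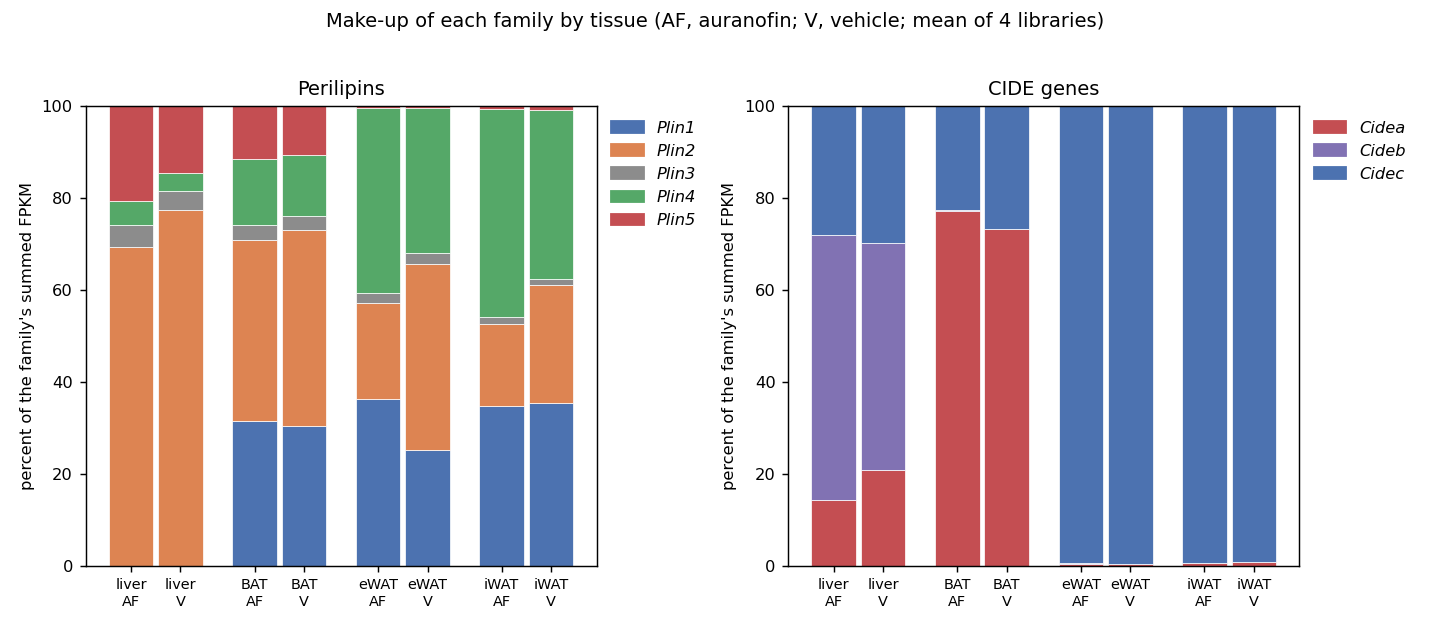
Stacked bars give the mean percent of each family's summed FPKM held by each member (left, perilipins; right, CIDE genes) in auranofin (AF) and vehicle (V) libraries of each tissue, n = 4 each. Cidec fills the white fat bars, Cidea leads in BAT and Cideb has the highest mean share in liver, while Plin2 leads the liver perilipins.

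Tissues were compared within the vehicle libraries, with all 16 in 1 limma fit on log2(FPKM + 1) and a Benjamini-Hochberg adjusted p under 0.05 over 14339 genes as the threshold. Cideb passed the filter of a mean FPKM of 0.5 through liver and Plin1 through fat, so Cideb is left out of the counts, as is Plin1 against liver, and those values are a description. Of the other members, 5 of 6 passed for liver minus BAT (63.1% of all genes did), 4 of 6 for liver minus eWAT (71.9%), 3 of 6 for liver minus iWAT (69.5%), 6 of 7 for BAT minus eWAT (53.0%), 6 of 7 for BAT minus iWAT (50.1%) and 5 of 7 for eWAT minus iWAT (46.2%). In bulk tissue, fewer cells of a type and less RNA per cell cannot be told apart.

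Plin1, the perilipin of adipocytes, was a fat gene with no liver signal. No read fell on it in the 4 vehicle livers and 1 read did in an auranofin liver. Its vehicle level was 349 ± 17.7 FPKM in BAT, 206 ± 89.7 in eWAT and 452 ± 31.8 in iWAT (SD, n = 4 each). Against a floor of 3 reads over the group, vehicle liver was at least 25921-fold lower than BAT, 15281-fold lower than eWAT and 33592-fold lower than iWAT. Among the fat depots, eWAT was lower than iWAT (log2 difference -1.24, SE 0.23, limma adjusted p = 0.000451) and BAT was higher than eWAT (0.87, SE 0.23, adjusted p = 0.00437), while BAT minus iWAT did not pass (-0.37, 95% interval -0.86 to 0.11, adjusted p = 0.191). The BAT to eWAT call was lost on the TPM scale (0.057, adjusted p = 0.836) and after quantile normalisation (0.19, adjusted p = 0.540), and BAT minus iWAT passed on the TPM scale (-0.75, adjusted p = 0.0103).

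Cidec, also called FSP27, which helps white adipocytes form a large droplet, was the most abundant member in white fat. Vehicle eWAT libraries had 779, 737, 1553 and 1651 FPKM and vehicle iWAT libraries 2371, 2538, 2261 and 2969 FPKM. The eWAT libraries split into a low and a high pair, and all lay below every iWAT library. The vehicle mean was 34.9 ± 22.8 FPKM in liver and 521 ± 56.3 FPKM in BAT. Every neighbour in this order passed: liver minus BAT was -4.12 (SE 0.40, adjusted p = 1.84e-07), BAT minus eWAT -1.08 (SE 0.40, adjusted p = 0.0333) and eWAT minus iWAT -1.19 (SE 0.40, adjusted p = 0.0245). The call between eWAT and iWAT was lost without eWAT vehicle library 1 (-1.03, adjusted p = 0.0750) or 2 (-1.001, adjusted p = 0.0666) and without iWAT vehicle library 4 (-1.12, adjusted p = 0.0573). It was also lost after quantile normalisation (-0.37, adjusted p = 0.485), on the TPM scale (-0.75, adjusted p = 0.140) and with no filter (adjusted p = 0.0562). The call between BAT and eWAT was lost with no filter (adjusted p = 0.0708) and when any of 6 libraries was left out, with adjusted p no higher than 0.0949.

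Cidea, the CIDE gene known from brown adipocytes, had the highest level of any member in BAT. The gene (ENSMUSG00000024526) is at chr18:67343564-67367794 in the table. Vehicle livers had 2.91, 92.1, 25.0 and 7.93 FPKM and vehicle BAT 1509, 1365, 1523 and 1327 FPKM. Vehicle eWAT had 0.537, 3.35, 6.61 and 6.46 FPKM and vehicle iWAT 25.2, 14.4, 25.8 and 9.58 FPKM. The BAT libraries lay far above all others, and eWAT lay below iWAT in every library. The livers spanned most of the range of the white depots and beyond it. The vehicle mean was 338-fold higher in BAT than in eWAT and 76.4-fold higher than in iWAT. BAT was higher than eWAT (8.34, SE 0.74, adjusted p = 1.70e-07) and iWAT (6.28, SE 0.74, adjusted p = 4.94e-06), and liver was lower than BAT (-6.39, SE 0.74, adjusted p = 1.45e-06). Liver minus iWAT did not pass (-0.11, 95% interval -1.69 to 1.48), although the mean FPKM was 31.98 in liver and 18.7 in iWAT. Liver minus eWAT passed (1.95, adjusted p = 0.0279) but was lost without eWAT vehicle library 1 (adjusted p = 0.101) or liver vehicle library 2 (0.108) or 3 (0.0722), and also on the TPM scale (1.07, adjusted p = 0.239) and with no filter (0.0557). For eWAT minus iWAT (-2.06, adjusted p = 0.0336) the call was lost when any of 5 libraries was left out, with adjusted p up to 0.118 without eWAT vehicle library 1. It was also lost on the TPM scale (0.0585) and with no filter (0.0721).

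Plin5 and Plin4, which lie side by side, had different tissue orders. Plin5, which ties droplets to mitochondria in oxidative tissues, stood at 53.5, 68.6, 80.9 and 75.0 FPKM in vehicle livers and 145, 126, 117 and 98.2 FPKM in vehicle BAT. It stood at 2.35, 1.29, 4.74 and 5.55 FPKM in vehicle eWAT and 15.2, 12.5, 10.2 and 10.9 FPKM in vehicle iWAT. No 2 tissues overlapped, and the BAT mean was 34.9-fold that of eWAT and 9.97-fold that of iWAT. Liver was lower than BAT (-0.80, SE 0.26, adjusted p = 0.0154, lost at 0.0527 without liver vehicle library 1) and eWAT was lower than iWAT (-1.66, SE 0.26, adjusted p = 0.000151). Plin4, which coats new droplets in adipocytes, averaged 18.9 ± 8.99 FPKM in vehicle liver, 153 ± 25.2 in BAT, 260.2 ± 128 in eWAT and 469 ± 36.7 in iWAT. Liver was lower than BAT (-3.10, SE 0.39, adjusted p = 3.74e-06), BAT minus eWAT did not pass (-0.62, 95% interval -1.46 to 0.22) and eWAT minus iWAT passed narrowly (-1.001, SE 0.39, adjusted p = 0.0482). That call was lost on leaving out any of 12 single libraries (adjusted p up to 0.172, without eWAT vehicle library 1) and in 5 other settings. Without eWAT vehicle library 1, BAT minus eWAT passed (-0.97, adjusted p = 0.0381), as it did on the TPM scale (-1.44, adjusted p = 0.00386) and after quantile normalisation (-1.14, adjusted p = 0.0209). The ratio of Plin5 to Plin4 FPKM was 4.58 ± 2.595 in vehicle liver, 0.821 ± 0.237 in BAT, 0.0139 ± 0.00595 in eWAT and 0.0263 ± 0.00590 in iWAT.

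Cideb, known in hepatocytes for loading lipid onto secreted lipoproteins, was found in liver almost alone. Vehicle livers had 46.6, 46.8, 45.9 and 40.7 FPKM. In vehicle BAT it had 0.756, 0.509, 0.934 and 0.287 FPKM, from 6 to 19 reads per library. At most 2 reads per library fell on it in vehicle eWAT and iWAT. With auranofin, eWAT library 2 had 12 reads (0.404 FPKM), and hepatocyte markers summed to 935 FPKM in that library. Nop9, which shares most of its exons, averaged 7.43 FPKM in liver, 3.93 in BAT, 4.14 in eWAT and 4.28 in iWAT over both treatments.

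Plin2 and Plin3, the perilipins made in most tissues, varied least between tissues. Vehicle Plin2 averaged 367 ± 25.5 FPKM in liver, 493 ± 89.1 in BAT, 306 ± 95.3 in eWAT and 329.6 ± 71.5 in iWAT. BAT was higher than eWAT (0.72, SE 0.20, adjusted p = 0.00685) and iWAT (0.59, SE 0.20, adjusted p = 0.0234). The iWAT call was lost without iWAT vehicle library 3 (adjusted p = 0.0780) or BAT vehicle library 3 (0.0802), and also on the TPM scale (0.21, adjusted p = 0.423) and with no filter (0.0545). The eWAT call was lost after quantile normalisation (0.089, adjusted p = 0.753). The other pairs did not pass, with liver minus BAT at -0.41 (95% interval -0.84 to 0.017) and liver minus eWAT at 0.31 (-0.12 to 0.73). Without eWAT vehicle library 1 both passed (liver minus BAT -0.41, adjusted p = 0.0374, and liver minus eWAT 0.50, adjusted p = 0.0193). Liver minus BAT also passed on the TPM scale (-0.80, adjusted p = 0.00367), after quantile normalisation (-1.004, adjusted p = 0.000567) and with voom (-0.47, adjusted p = 0.0478). Plin3, an exchangeable perilipin that moves between cytosol and droplet, averaged 20.5 ± 2.43 FPKM in vehicle liver, 36.5 ± 5.58 in BAT, 18.3 ± 2.27 in eWAT and 18.3 ± 0.558 in iWAT. BAT was higher than eWAT (0.95, SE 0.12, adjusted p = 8.09e-06) and iWAT (0.94, SE 0.12, adjusted p = 1.21e-05), and liver was lower than BAT (-0.79, SE 0.12, adjusted p = 3.05e-05). For both genes the sign of liver minus eWAT, liver minus iWAT and eWAT minus iWAT turned when libraries were scaled to equal totals (TPM) or quantile normalised. Some of the turned differences passed. Plin2 was then lower in liver than in eWAT (TPM -0.90, adjusted p = 0.00106, and quantile -0.91, adjusted p = 0.00108) and than in iWAT (TPM -0.59, adjusted p = 0.0199). Plin3 was lower in liver than in eWAT (TPM -1.02, adjusted p = 6.78e-06, and quantile -0.30, adjusted p = 0.0394) and than in iWAT (TPM -0.60, adjusted p = 0.00140), and higher in eWAT than in iWAT (TPM 0.42, adjusted p = 0.0212). The TPM scale shifted the median of all genes by between -0.98 and 0.32 in these contrasts and by -0.69 in BAT minus eWAT. In BAT minus eWAT the calls of Plin1 (0.057) and Plin3 (0.17) were lost and Plin2 (-0.10) turned negative. Relative to the TPM median, Plin2 was at 0.086 and Plin3 at -0.037 in liver minus eWAT. In liver minus iWAT they were at 0.026 and 0.019, and Plin3 was at 0.11 in eWAT minus iWAT. These TPM calls thus largely followed the shift of all genes. Relative to the quantile median, Plin2 was at -0.87 and Plin3 at -0.26 in liver minus eWAT.

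**Figure D2:**
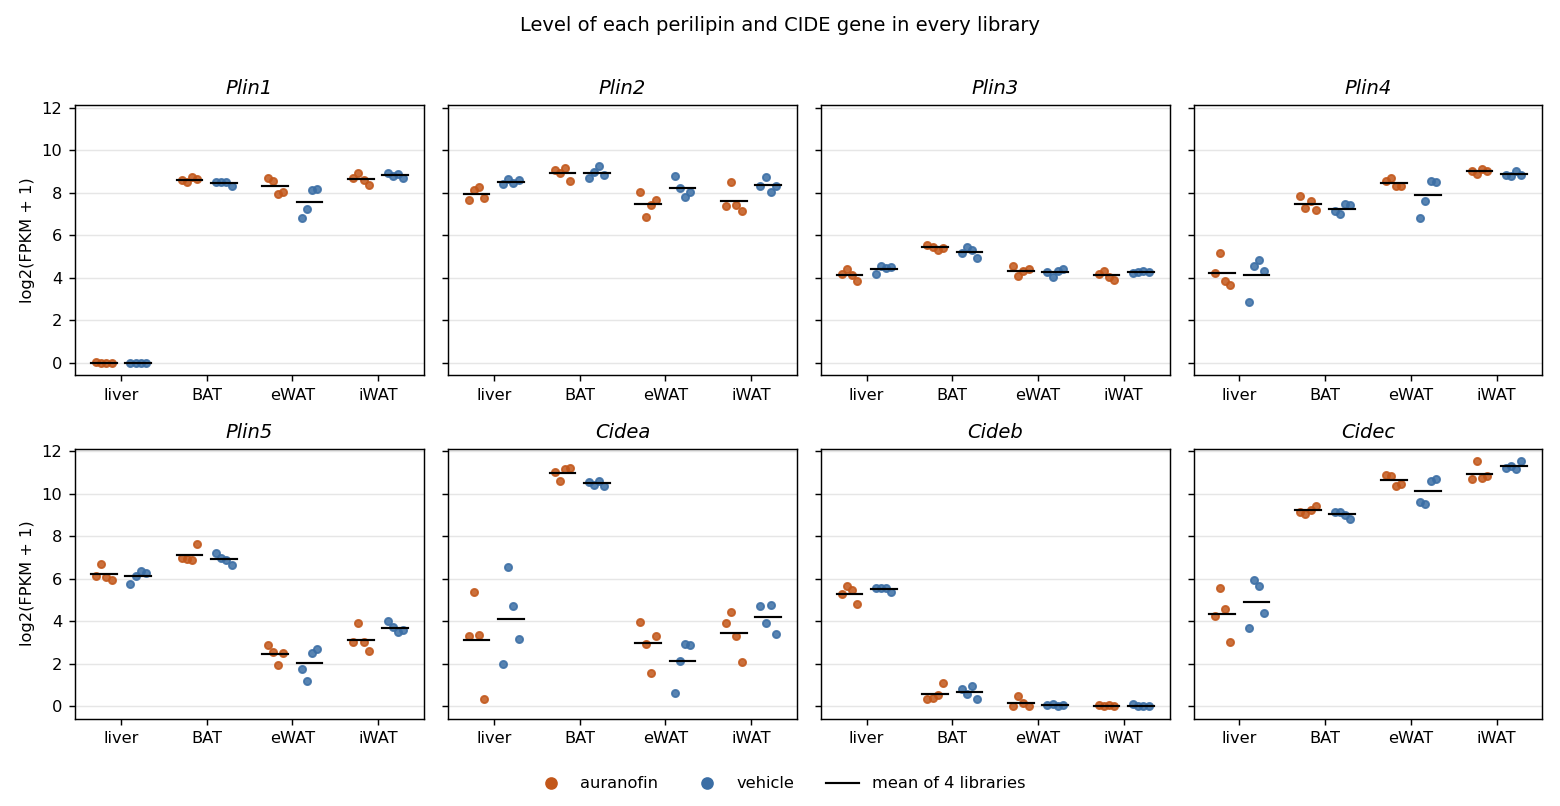
Each point is 1 library, placed by tissue and colour (auranofin left, vehicle right), on a log2(FPKM + 1) axis, and bars mark means of 4 libraries. Plin1 is at 0 in liver, Cidea peaks in BAT, Cideb is seen in liver, Plin5 is high in liver and BAT, and eWAT vehicle libraries spread widely.

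Within the auranofin libraries, counted with the same omissions, 6 of 6 members passed for liver minus BAT (61.9% of all genes), 3 of 6 for liver minus eWAT (68.6%), 3 of 6 for liver minus iWAT (67.9%), 6 of 7 for BAT minus eWAT (52.5%), 6 of 7 for BAT minus iWAT (47.5%) and 0 of 7 for eWAT minus iWAT (10.6%). In the vehicle libraries the 5 members that passed for eWAT minus iWAT were all lower in eWAT (24.8% of all genes were). With auranofin the same differences were -0.32 for Plin1, -0.52 for Plin4, -0.66 for Plin5, -0.48 for Cidea and -0.31 for Cidec, all with 95% intervals that included 0 except that of Plin5 (-1.23 to -0.077, adjusted p = 0.147). An interaction fit over the 16 eWAT and iWAT libraries asked whether the depot difference itself changed with auranofin, and no member passed (0.0% of 13670 genes did). The values closest to passing were Plin1 (0.93, SE 0.40, adjusted p = 0.189) and Plin5 (1.01, SE 0.46, adjusted p = 0.204).

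Auranofin and vehicle libraries were compared within each tissue, and no member passed the threshold in any of the 4. The limma fits called 0.0% of 13122 genes in liver, 0.023% of 13067 in BAT, 0.0% of 13847 in eWAT and 0.0% of 13164 in iWAT, and voom on reads rebuilt from FPKM and gene length called 0, 4, 0 and 0 genes. Unadjusted p was under 0.05 for 6.04%, 11.2%, 11.4% and 22.0% of genes in the same order. Plin1 in liver and Cideb in eWAT and iWAT were too low to be tested. The plot of differences with their intervals shows every tested member.

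**Figure D3:**
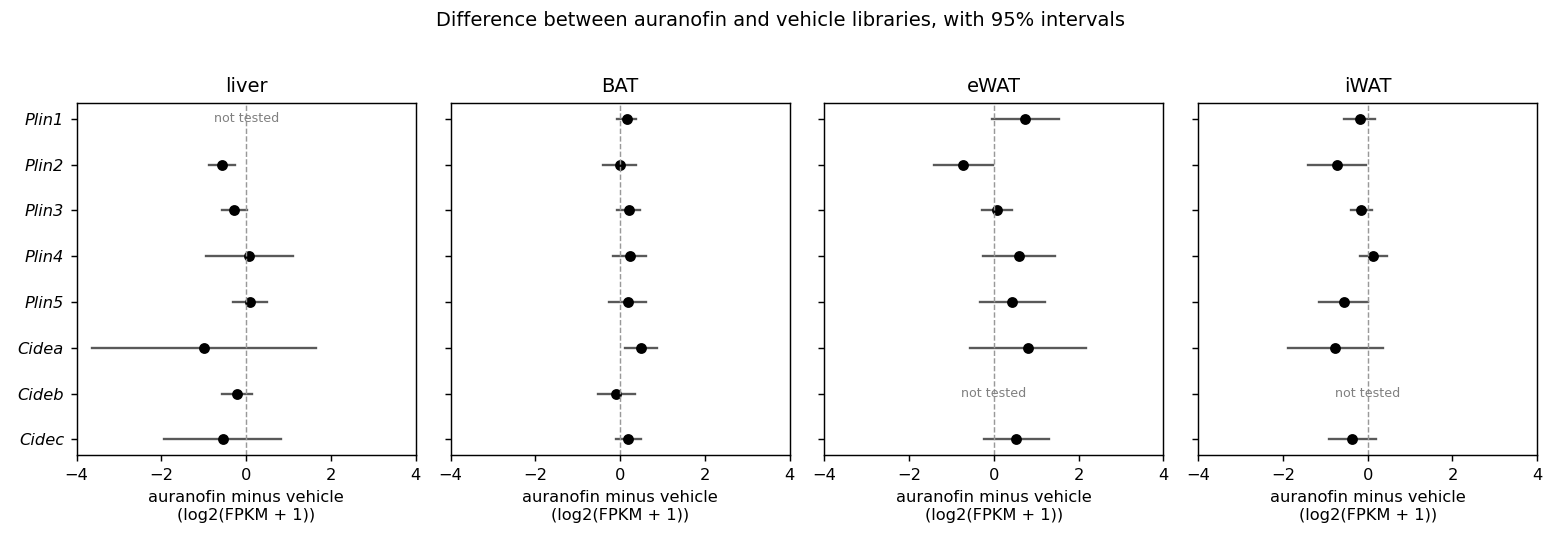
Points are differences in log2(FPKM + 1), auranofin minus vehicle, and lines are 95% intervals from limma, n = 4 each. Intervals are narrow in BAT and widest for Cidea and Cidec in liver, and those of Plin2 in liver, eWAT and iWAT and of Cidea in BAT exclude 0 before adjustment.

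In liver, Plin2 was the member whose groups did not overlap. Auranofin livers had 204, 275, 310.1 and 214 FPKM and vehicle livers 339.8, 395, 352 and 381 FPKM. Every auranofin library lay below every vehicle library (log2 difference -0.57, SE 0.14, unadjusted p = 0.00265, limma adjusted p = 0.790). Of all genes tested in liver, 3.72% had groups that did not overlap, against 1 of the 7 members tested. The difference was -0.68 to -0.48 over 18 settings, with adjusted p from 0.321 to 0.998, so the direction held in all of them and none passed. Plin3 had 17.0, 20.1, 16.6 and 13.5 FPKM with auranofin and 17.0, 22.2, 21.0 and 21.9 FPKM with vehicle (-0.28, SE 0.13, adjusted p = 0.790), with all 4 auranofin libraries below 3 of the 4 vehicle libraries. Cideb averaged 39.4 ± 9.36 FPKM with auranofin and 45.0 ± 2.89 FPKM with vehicle (-0.22, SE 0.16, adjusted p = 0.844). Macrophage markers summed to 45.3 to 58.2 FPKM in auranofin and 34.9 to 46.7 FPKM in vehicle livers, and their part in these values was not tested.

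Cidea and Cidec varied widely between livers of both groups. Cidea had 8.89, 41.0, 9.27 and 0.272 FPKM with auranofin and 2.91, 92.1, 25.0 and 7.93 FPKM with vehicle (-0.99, SE 1.17, adjusted p = 0.896). Cidec had 18.1, 46.1, 22.8 and 7.05 FPKM with auranofin and 11.8, 59.5, 48.7 and 19.7 FPKM with vehicle (-0.55, SE 0.61, adjusted p = 0.889). For both genes library 2 was highest in each group, and the groups overlapped. The livers high in Cidea were high in Cidec: over the 8 libraries Pearson's r of log2(FPKM + 1) was 0.98 (exact permutation p = 0.000223, Benjamini-Hochberg 0.0109 over 49 pairs in liver and BAT) and Spearman's rho was 0.95 (exact permutation p = 0.00114, adjusted 0.0280). Without the 2 livers farthest from the median of Cidea, r was 0.97.

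Plin4 and Plin5 also varied together across livers. Plin4 had 17.5, 35.4, 13.4 and 11.5 FPKM with auranofin and 6.35, 22.5, 27.4 and 19.2 FPKM with vehicle (0.076, SE 0.45, adjusted p = 0.983). Plin5 had 68.5, 102, 66.0 and 61.4 FPKM with auranofin and 53.5, 68.6, 80.9 and 75.0 FPKM with vehicle (0.085, SE 0.18, adjusted p = 0.951). Auranofin library 2 was highest and vehicle library 1 lowest for both. Pearson's r was 0.93 (exact permutation p = 0.00124, adjusted 0.0255) and rho 0.98 (exact permutation p = 0.000397, adjusted 0.0194), and r was 0.88 without the 2 farthest livers. All 21 pairs among the 7 members tested in liver (all but Plin1) had r above 0, and Cidea with Cidec and Plin4 with Plin5 were the pairs that passed. The white depots were left out of these tests, and no share over other gene pairs was computed. Plin4 with Plin5 had r of -0.37 in BAT, 0.75 in eWAT and -0.77 in iWAT. Cidea with Cidec had 0.78, 0.77 and 0.43 in the same order. Untested pairs were as high in white fat, such as Plin1 with Cidea in iWAT (0.975) and Plin1 with Cidec in eWAT (0.966). Adipoq was at 0 in the livers highest in Cidea, Cidec, Plin4 or Plin5. The 8 white adipocyte markers together, however, summed to 16.7, 26.4, 16.6 and 9.30 FPKM in auranofin livers. In vehicle livers they summed to 9.18, 12.3, 34.0 and 13.5 FPKM. Within each group this sum was highest and lowest in the same livers as Plin4 and Plin5. The part of these markers in the liver values was not tested.

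**Figure D4:**
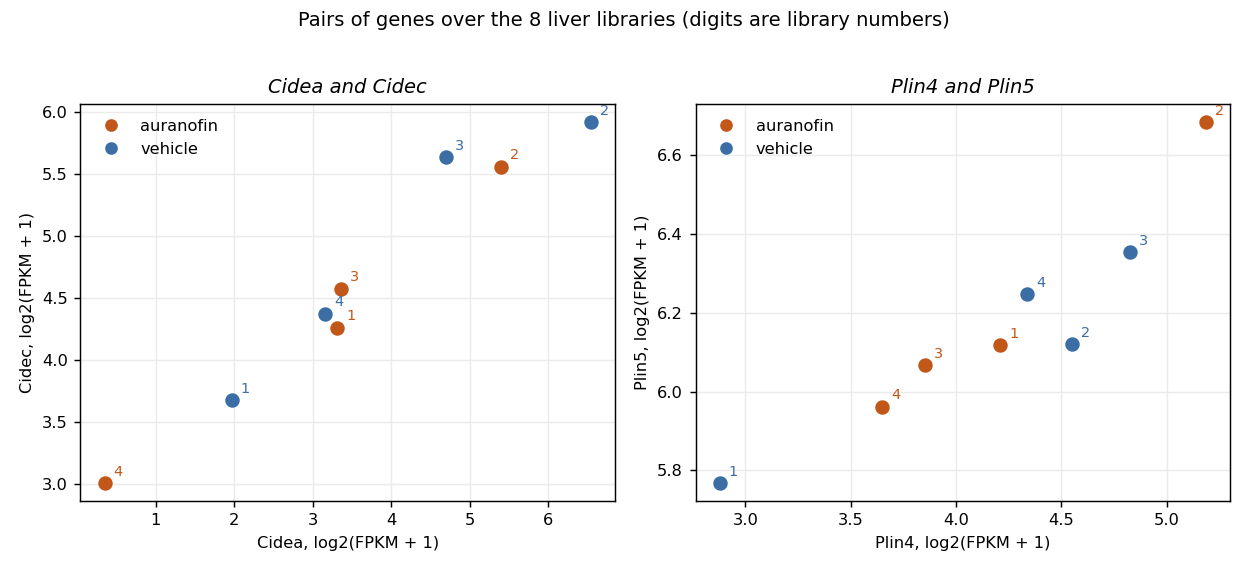
Each point is 1 liver library, with log2(FPKM + 1) of Cidea against Cidec on the left and of Plin4 against Plin5 on the right, coloured by treatment and labelled by library number. The points of both groups lie along 1 line in each panel (r 0.98 and 0.93).

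In BAT, every auranofin library lay above every vehicle library for Plin1 and Cidea, and neither passed the threshold. Cidea had 2063, 1525, 2260.2 and 2350.4 FPKM with auranofin and 1509, 1365, 1523 and 1327 FPKM with vehicle (0.50, SE 0.17, unadjusted p = 0.0145, limma adjusted p = 0.331). The gap was small, since auranofin library 2 lay just above the highest vehicle library. Plin1 had 382, 362, 423 and 395 FPKM with auranofin and 357, 359, 357 and 323 FPKM with vehicle (0.16, SE 0.099, adjusted p = 0.572). Its gap, from 359 to 362 FPKM, was small too. Groups that did not overlap were found for 2 of the 8 members and for 5.33% of all genes tested in BAT. Over 17 settings the Cidea difference was 0.31 to 0.64 and its adjusted p 0.0759 to 0.899. The Plin1 difference was 0.019 to 0.20 and its adjusted p 0.381 to 0.967. Plin1 and Cidea also went together over the 8 BAT libraries (r 0.89, exact permutation p = 0.00156, adjusted 0.0255), but rho (0.88) did not pass (adjusted p = 0.118). As neither gene's groups overlapped, the r holds the difference between groups too.

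The other members in BAT overlapped between groups. Cidec averaged 596 ± 64.2 FPKM with auranofin and 521 ± 56.3 FPKM with vehicle (0.19, SE 0.13, adjusted p = 0.602). Plin4 averaged 179.8 ± 36.4 FPKM with auranofin and 153 ± 25.2 FPKM with vehicle (0.23, SE 0.17, adjusted p = 0.647). Plin3 averaged 42.0 ± 3.25 FPKM with auranofin and 36.5 ± 5.58 FPKM with vehicle (0.21, SE 0.12, adjusted p = 0.545). None of these 3 differences passed. Plin5 averaged 140.3 ± 39.1 FPKM with auranofin and 121 ± 19.3 FPKM with vehicle (0.18, SE 0.19, adjusted p = 0.741), with auranofin library 4 highest at 199 FPKM. Plin2 stood at 491 ± 84.5 FPKM with auranofin and 493 ± 89.1 FPKM with vehicle, a difference of -0.0058 with a 95% interval of -0.40 to 0.39. Cideb stood at 0.535 ± 0.388 FPKM with auranofin and 0.621 ± 0.283 FPKM with vehicle (-0.093, SE 0.19, adjusted p = 0.874). Macrophage markers summed to 31.1 to 69.6 FPKM in auranofin BAT, below the 80.6 to 129.7 FPKM of vehicle BAT, with none of the 10 markers at 0. Brown adipocyte markers summed to 6968 to 12218 FPKM in auranofin and 4776 to 9080 FPKM in vehicle BAT. Skeletal muscle markers summed to 6.84, 3182, 5.55 and 1303 FPKM in auranofin and 63.2, 4.41, 281 and 785 FPKM in vehicle BAT. The part of these markers in the BAT values was not tested.

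In eWAT, Plin1 and Plin2 leaned in opposite directions. Plin1 had 418, 379, 246 and 265 FPKM with auranofin and 111, 148, 275 and 289 FPKM with vehicle (0.74, SE 0.35, limma adjusted p = 0.429). Plin2 had 259.5, 114, 171 and 202 FPKM with auranofin and 441, 299, 224 and 260.0 FPKM with vehicle (-0.72, SE 0.31, adjusted p = 0.429). Groups overlapped for both, and for 0 of the 7 members tested did they not, against 6.95% of all genes. The ratio of Plin2 to Plin1 was 0.300 to 0.765 in auranofin and 0.812 to 3.97 in vehicle eWAT, with no overlap. It overlapped in iWAT (0.398 to 0.762 with auranofin and 0.545 to 0.962 with vehicle). In BAT it also overlapped (0.962 to 1.395 with auranofin and 1.15 to 1.73 with vehicle). The ratio was given no test because the members were chosen with earlier results known. How often ratios of other genes do not overlap was not computed.

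Vehicle libraries 1 and 2 were the lowest of the 8 in Plin1, Plin4, Plin5 and Cidec. Cidec had 1870.1, 1818, 1318 and 1418 FPKM with auranofin and 779, 737, 1553 and 1651 FPKM with vehicle (0.53, SE 0.34, adjusted p = 0.466). Plin4 averaged 357 ± 44.7 FPKM with auranofin and 260.2 ± 128 FPKM with vehicle (0.60, SE 0.38, adjusted p = 0.457), and Plin5 4.73 ± 1.43 FPKM with auranofin and 3.48 ± 1.99 FPKM with vehicle (0.44, SE 0.34, adjusted p = 0.524). Cidea averaged 8.10 ± 5.25 FPKM with auranofin and 4.24 ± 2.89 FPKM with vehicle (0.82, SE 0.61, adjusted p = 0.513), and Plin3 19.3 ± 2.80 FPKM with auranofin and 18.3 ± 2.27 FPKM with vehicle (0.065, SE 0.16, adjusted p = 0.842). Without those 2 libraries the differences were 0.18 for Plin1, -0.43 for Plin2, -0.048 for Plin3, -0.048 for Plin4, -0.13 for Plin5, 0.044 for Cidea and -0.012 for Cidec. Of the 7, 4 changed sign and Plin2 stayed the furthest from 0. Leaving out the lowest vehicle libraries can only lower the differences of Plin1, Plin4, Plin5 and Cidec, so it is no separate check on them. Macrophage markers summed to 835, 263, 852 and 939 FPKM in auranofin and 2267, 1819.9, 859 and 1031 FPKM in vehicle libraries, so the vehicle libraries low in Plin1 were the highest in these markers. None of the 10 was at 0 in any library. White adipocyte markers summed to 5492 to 11163 FPKM in auranofin and 2647 to 5649 FPKM in vehicle eWAT, and hepatocyte markers to 109 to 935 FPKM in auranofin and 88.1 to 201 FPKM in vehicle eWAT. The part of these markers in the result was not tested.

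**Figure D5:**
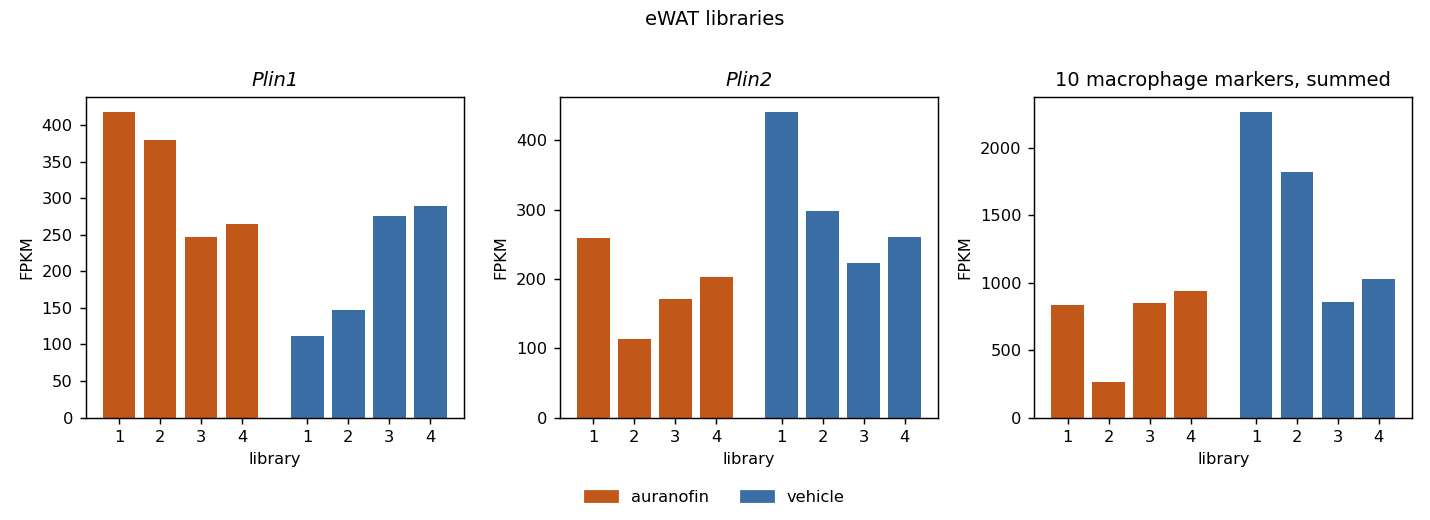
Bars give FPKM of Plin1, Plin2 and the sum of 10 macrophage markers in each eWAT library, auranofin on the left and vehicle on the right of each panel. Vehicle libraries 1 and 2 are lowest in Plin1 (111 and 148) and highest in the marker sum (2267 and 1819.9).

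In iWAT, 6 of the 7 members tested had lower means with auranofin, and none had groups that did not overlap (5.18% of all genes did). Plin2 had 164, 367, 172 and 140.4 FPKM with auranofin and 317, 429, 258 and 315 FPKM with vehicle (-0.73, SE 0.30, limma adjusted p = 0.215). Cidec had 1643, 2965, 1698 and 1792 FPKM with auranofin and 2371, 2538, 2261 and 2969 FPKM with vehicle (-0.36, SE 0.24, adjusted p = 0.367). Plin5 had 7.16, 14.2, 7.05 and 5.02 FPKM with auranofin and 15.2, 12.5, 10.2 and 10.9 FPKM with vehicle (-0.57, SE 0.26, adjusted p = 0.232). For all 3 genes auranofin library 2 lay among the vehicle libraries and the other 3 auranofin libraries lay below all vehicle libraries. The other members, with adjusted p from 0.354 to 0.584, stood closer to 0 or spread more widely. Plin1 averaged 401 ± 64.5 FPKM with auranofin and 452 ± 31.8 FPKM with vehicle (-0.18, SE 0.16), and Plin3 16.5 ± 2.25 FPKM with auranofin and 18.3 ± 0.558 FPKM with vehicle (-0.15, SE 0.11). Plin4 averaged 511 ± 33.2 FPKM with auranofin and 469 ± 36.7 FPKM with vehicle (0.13, SE 0.14), and Cidea 11.7 ± 7.48 FPKM with auranofin and 18.7 ± 8.07 FPKM with vehicle (-0.76, SE 0.50).

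These calls turned on auranofin library 2. Without it Plin2 (-1.03, SE 0.17, adjusted p = 0.00333), Plin5 (-0.83, SE 0.16, adjusted p = 0.00568) and Cidec (-0.56, SE 0.12, adjusted p = 0.00919) passed, among 4819 genes called in iWAT (36.4% of 13248 tested). Plin1 (-0.28, adjusted p = 0.0849), Plin3 (-0.23, 0.0671) and Cidea (-1.10, 0.103) did not, and Plin4, the member above 0, was at 0.17 (adjusted p = 0.195). Library quality weights, which count outlying libraries less, called Plin2, Plin3, Plin5, Cidea and Cidec among 6095 genes (46.3% of 13164). The sign for Plin1, Plin3 and Cidec was not stable: on the TPM scale Plin1 was at 0.099 and Plin3 at 0.12, and after quantile normalisation Plin1 was at 0.26, Plin3 at 0.011 and Cidec at 0.17. Plin2, Plin5 and Cidea stayed below 0 in all 18 settings. Plin2 made up 17.8% ± 6.29 of the perilipin sum with auranofin and 25.7% ± 4.83 with vehicle, and Plin4 45.2% ± 7.40 with auranofin and 36.6% ± 3.36 with vehicle. White adipocyte markers summed to 7282 to 8386 FPKM in auranofin libraries 1, 3 and 4 and to 13655 FPKM in library 2, against 11257 to 13517 FPKM with vehicle. Brown adipocyte markers summed to 31.1 to 146 FPKM with auranofin and 116 to 177 FPKM with vehicle, and hepatocyte markers to 76.4 to 168 FPKM with auranofin and 148 to 627 FPKM with vehicle. Cox8b made up most of the brown sum and averaged 50.6 FPKM with auranofin and 114 FPKM with vehicle. Ucp1 averaged 0.147 FPKM with auranofin and 0.158 FPKM with vehicle, and 2 of the 6 brown markers tested lay above 0. Most of the hepatocyte sum was Cyp2e1, which averaged 114 FPKM with auranofin and 240 FPKM with vehicle. Alb averaged 15.5 FPKM with auranofin and 69.2 FPKM with vehicle, where library 1 had 217 FPKM. Up to 2 of the 10 brown and 3 of the 9 hepatocyte markers were at 0 in a library. Their part in the result was not tested.

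The difference of the auranofin effect between tissues was tested in 4 interactions, and no member passed in any. For iWAT minus BAT, which called 0.0224% of 13372 genes, Cidea was at -1.27 (SE 0.56, adjusted p = 0.198) and Plin3 at -0.36 (SE 0.16, adjusted p = 0.198). Without iWAT auranofin library 2, Plin1, Plin2, Plin3, Plin5, Cidea and Cidec passed in that contrast, among 3664 genes (27.4% of 13392). For eWAT minus BAT the value furthest from 0 was Plin2 (-0.72, SE 0.36, adjusted p = 0.777; 0.0% of 13842 genes passed). For liver minus the mean of the fat depots it was Cidea (-1.17, SE 0.94, adjusted p = 0.879; 0.0% of 14413 genes).

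Other genes of droplet turnover were followed in 4 lists: lipases and their regulators (16 genes), triglyceride synthesis and droplet formation (25), other droplet-surface proteins (27), and transcription factors known to act on these genes (16). No gene of any list passed in any tissue. In iWAT the lipase list had 14 of 15 tested genes below 0 (median log2 difference -0.31, against -0.017 over all genes). Values of every list in iWAT share the low FPKM totals of auranofin libraries 1, 3 and 4, and the lists were not rerun on the TPM scale. Hilpda, an inhibitor of the lipase ATGL, had 18.2 ± 10.2 FPKM with auranofin and 48.96 ± 10.9 FPKM with vehicle (-1.49, SE 0.34, limma adjusted p = 0.204), and G0s2, another ATGL inhibitor, had 267 ± 53.1 FPKM with auranofin and 471 ± 132 FPKM with vehicle (-0.80, SE 0.22, adjusted p = 0.204). Both had groups that did not overlap. They were printed for the smallest p of the list, and 5.18% of all genes tested in iWAT had no overlap. In BAT, Hilpda was again below 0 (8.78 ± 3.89 FPKM with auranofin and 18.0 ± 4.14 with vehicle, -1.03, SE 0.30, adjusted p = 0.285), while G0s2 was above it (616 ± 233 FPKM with auranofin and 339.8 ± 123 with vehicle, 0.86, SE 0.40, adjusted p = 0.463). The lipase list had 12 of 14 above 0 in BAT (median 0.068, all genes 0.022).

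In iWAT, triglyceride synthesis had 19 of 25 genes below 0 (median -0.18), among them Bscl2, which encodes seipin, needed to form droplets, with 45.1 ± 19.97 FPKM with auranofin and 72.2 ± 9.78 FPKM with vehicle (-0.74, SE 0.25, adjusted p = 0.204). Pcyt1a, which makes phosphatidylcholine for the droplet surface, was above 0 in iWAT (0.35, adjusted p = 0.204) and below 0 in eWAT (-0.33, adjusted p = 0.429), with no overlap between groups in either. It too was printed for its small p, and 5.18% of all genes in iWAT and 6.95% in eWAT had no overlap. In BAT that list had 16 of 24 above 0 (median 0.19). Lpin1, a phosphatidate phosphatase, was at 0.31 (adjusted p = 0.386) and Cavin1, of caveolae, at -0.30 (adjusted p = 0.392). Clstn3 had 71.3 ± 17.5 FPKM with auranofin and 47.5 ± 8.31 FPKM with vehicle in BAT (0.56, SE 0.19, adjusted p = 0.351). Droplet-surface genes in iWAT included Mettl7b (-0.74) and Nsdhl (-0.70), and in eWAT Mettl7a1 (0.97) and Hsd17b7 (-0.38), none past the threshold. Srebf1, a driver of lipid synthesis genes, was at -0.39 in iWAT, 0.63 in eWAT and 0.44 in BAT, with adjusted p from 0.204 to 0.484. Nr1h3, which encodes the receptor LXR-alpha, was at -0.41 in iWAT and 0.19 in BAT.

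In eWAT the lipase list had 11 of 15 above 0 (median 0.33, all genes 0.0029), and all 13 tested transcription factors lay above 0 (median 0.31). Cebpa, a driver of adipocyte differentiation, had 284 ± 76.4 FPKM with auranofin and 150.1 ± 95.7 FPKM with vehicle (1.19, SE 0.53, adjusted p = 0.429). Lipa, the lysosomal lipase, had 70.3 ± 24.0 FPKM with auranofin and 176 ± 95.6 FPKM with vehicle (-1.22, SE 0.43, adjusted p = 0.429). These values share the 2 vehicle libraries that stood apart. In liver the list medians lay between -0.067 and -0.033, and Mgll, the monoglyceride lipase, had 53.6 ± 5.54 FPKM with auranofin and 74.4 ± 14.6 FPKM with vehicle (-0.45, SE 0.14, adjusted p = 0.790), with no overlap. Mgll was printed for its small p, and 3.72% of all genes tested in liver had no overlap. Agpat3, an acyltransferase of phosphatidate synthesis, was at -0.21 and Agpat1 at 0.36 in liver (adjusted p = 0.790 for both), and Rdh10, Rab8a, Prkaca and Ppara lay between -0.32 and -0.13. Pparg averaged 5.33 ± 0.255 FPKM with auranofin and 6.83 ± 2.19 FPKM with vehicle in liver (-0.27, SE 0.17, adjusted p = 0.817). Its values were 5.35, 5.45, 5.55 and 4.97 FPKM with auranofin and 5.92, 10.01, 5.02 and 6.38 FPKM with vehicle. Vehicle library 2, the liver highest in Cidea and Cidec, was highest in Pparg too. Vehicle library 3, the next liver in Cidec, was the lowest vehicle liver in Pparg.

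The protein-coding genes whose levels were most like each member over all 32 libraries are given as a description, since libraries of a tissue share the tissue. They were Rgcc and Tusc5 for Plin1 (Pearson's r 0.998 each), Sort1 for Plin4 (0.98), Acaa2, a mitochondrial thiolase of fatty acid oxidation, for Plin5 (0.98), Sucla2, of the citric acid cycle, for Cidea (0.96), Sgk2 and Mttp, the transfer protein that lipidates apolipoprotein B, for Cideb (0.996 and 0.995), and Snn for Cidec (0.98). Plin2 had no such close partner, with Ube2f at 0.87, and Plin3 had Abhd4 at 0.96. When deviations from the means of the 8 groups were compared instead, Gprc5b was the most alike gene for 3 members, Cidec (0.86), Cidea (0.80) and Plin4 (0.75). The first for the others were Slc25a23 for Plin1 (0.92), Smpd1 for Plin5 (0.91), Eef1akmt1 for Plin2 (0.85), Cdkn1a for Plin3 (0.81) and Car14 for Cideb (0.73). Clstn3, of the droplet-surface list, was second for Cidec (0.80). Its adipocyte isoform is known in mouse to bind CIDE proteins and limit their activity. Prss8 was close behind for Cidec (0.79) and second for Cidea (0.76). In liver Clstn3 had 13.0, 19.7, 13.1 and 5.43 FPKM with auranofin and 14.1, 24.5, 18.3 and 15.4 FPKM with vehicle. The highest in each group was library 2 and the lowest auranofin library 4, as for Cidea and Cidec.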

How the data were processed

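Per the submitters' processing notes, the tools were CASAVA, STAR (2.6.1d) and featureCounts (1.5.0-p3), with DESeq2 (1.20.0) named as well and mm10 as the build. The authors deposited 1 table of FPKM values per gene for all 32 libraries, from a non-stranded kit per the labels' protocols. Reads per gene, rebuilt from FPKM, gene length and library size, came out whole within 0.1 read for 100% of values. That library size was not the sum of reads on genes, and how it was set is not given in the sources used here. Groups came from the sample labels.

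Differences were tested with limma 3.58.1 (R 4.3.3, statmod 1.5.0) on log2(FPKM + 1) with a mean-variance trend, for genes with a mean FPKM of at least 0.5, and adjusted with Benjamini-Hochberg over all genes tested. Folds on this scale understate the change of low genes. Each treatment comparison used the 8 libraries of its tissue, tissue comparisons the 16 libraries of a treatment, and interactions the tissues compared. The fits were also run on simulated counts with the same spread setting for every gene and no outlying library. That run cannot show how the fits behave with libraries that stand apart, as some did here. Figures and exact tests used Python 3.11.15, scipy 1.17.1 and matplotlib 3.10.9. The alternatives were a pseudocount of 0.1, no filter, TPM, quantile normalisation, voom on rebuilt reads, quality weights, a fit of all 32 libraries, a replicate block and each library left out. The members and lists were chosen with earlier results of these data known. All members were named in every tissue, and from each list and tissue the genes that passed, up to 5, or else the 2 with the smallest p. The most alike genes were sought among 11223 protein-coding genes with a mean FPKM of at least 1. The first of the 3 found for a member is printed, with some of the others. Marker genes of other cell types are given as summed FPKM.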

Additional observations from a re-analysis of the deposited data

Results flagged for a closer look

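In 7 of 58 groups of 4 libraries, 1 library lay far from the others, with a gap to its nearest neighbour, over the group's range, above Dixon's 95% critical value; chance gives about 1 in 20 groups. In iWAT with auranofin, library 2 was highest in Plin2 at 367 FPKM (the others 140.4 to 172) and in Cidec at 2965 FPKM (1643 to 1792). This is the library whose removal changed the iWAT calls. In BAT with auranofin, library 4 was highest in Plin5 at 199 FPKM (116 to 126) and in Cideb at 1.11 FPKM (0.287 to 0.426). In BAT with vehicle, library 4 was lowest in Plin1 at 323 FPKM (357 to 359). In iWAT with vehicle, library 3 was highest in Plin4 at 523 FPKM (442 to 455). In liver with vehicle, library 4 was lowest in Cideb at 40.7 FPKM (45.9 to 46.8).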

How the results depend on the processing

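Cideb outside liver and Plin1 in liver rest on a few reads. Treatment comparisons are limited by 4 libraries per group. For auranofin against vehicle, the count of genes called in iWAT was 6095 with quality weights, 722 in 1 fit of all 32 libraries and 0 to 4819 on leaving out single libraries. In eWAT it was 6 with weights, 1280 in the fit of all 32 and 0 to 1. In liver it was 1 with no filter, 1 with weights, 25 in the fit of all 32 and 0 to 1. In BAT it was 1 on the TPM scale, 6 with weights, 96 in the fit of all 32 and 0 to 208, the last without auranofin library 2. In the fit of all 32, Plin1 in eWAT passed (0.74, adjusted p = 0.0237).

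For interactions, eWAT minus BAT called 1 gene with no filter and 0 to 2 on leaving out single libraries, eWAT minus iWAT 0 to 2036, iWAT minus BAT 6 with TPM, 15 after quantile normalisation and 0 to 3664, and liver minus fat 46 with no filter and 0 to 10.

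Signs that turned concern differences that had not passed as first tested, except Plin2 in BAT minus eWAT, and some then passed the other way, as given above; the causes were not tested. With TPM, iWAT Plin1 was 0.099 and Plin3 0.12, eWAT Plin3 -0.094, eWAT minus iWAT Plin2 0.31 and Plin3 0.42, BAT minus eWAT Plin2 -0.10, liver minus iWAT Plin2 -0.59 and Plin3 -0.60, and liver minus eWAT Plin2 -0.90 and Plin3 -1.02. TPM interactions were Plin2 -0.44 and Plin3 -0.21 for eWAT minus iWAT, and Plin1 0.080, Plin3 0.047 and Plin4 0.33 for iWAT minus BAT. After quantile normalisation, iWAT Plin1 was 0.26, Plin3 0.011 and Cidec 0.17, eWAT minus iWAT Plin2 0.43 and Plin3 0.21, liver minus iWAT Plin2 -0.48 and Plin3 -0.088, and liver minus eWAT Plin2 -0.91 and Plin3 -0.30. Quantile interactions were Plin2 -0.63 and Plin4 -0.19 for eWAT minus iWAT, and Plin1 0.23, Plin4 0.56 and Cidec 0.11 for iWAT minus BAT. With voom, eWAT minus iWAT Plin3 was 0.060 and its interaction Plin2 -0.019, and the liver interaction Plin1 0.18. With weights, eWAT Plin3 was -0.011, Plin4 -0.067, Plin5 -0.12 and Cidec -0.070, and BAT Plin2 0.025. Without eWAT vehicle libraries 1 and 2, the lowest in Plin4, Plin5 and Cidec, Plin3 was -0.048, Plin4 -0.048, Plin5 -0.13 and Cidec -0.012. Without library 2 of both liver groups, chosen after seeing the data, Plin4 was -0.11 and Plin5 -0.075.

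On leaving out single libraries, BAT Plin2 ran from -0.087 to 0.11, eWAT Plin3 from -0.018 to 0.15, liver Plin4 from -0.35 to 0.30 and Plin5 from -0.074 to 0.17, eWAT minus iWAT Plin2 from -0.32 to 0.0031 and Plin3 from -0.063 to 0.075, and liver minus iWAT Cidea from -0.93 to 0.60. Interactions ran from -0.19 to 0.77 for Cidea and -0.028 to 0.48 for Plin5 in eWAT minus BAT, -0.18 to 0.30 for Plin2 in eWAT minus iWAT, -0.19 to 0.016 for Plin4 in iWAT minus BAT, and -0.19 to 0.019 for Plin2 and -0.093 to 0.16 for Plin5 in liver minus fat. The share of tissue calls that were higher, in percent, was 46.3 and with TPM 81.7 for eWAT minus iWAT, 48.6 and 24.4 for BAT minus iWAT, 47.6 and 12.7 for BAT minus eWAT, 51.5 and 25.2 for liver minus iWAT, 52.1 and 17.6 for liver minus eWAT, and 49.7 and 32.7 for liver minus BAT.

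Library numbers showed no clear pairing of samples. In none of 28 pairs of groups, across tissues and treatments, did every same-numbered pair correlate above 0.1. Means ran from -0.0811 to 0.228, and up to 3 of 4 libraries were best matched to their own number. Deviations need not correlate between tissues of the same animal, so the check cannot show whether same-numbered libraries of a treatment share animals. Deviations of same-numbered auranofin and vehicle libraries correlated at no less than 0.023 in liver, -0.216 in BAT, -0.12 in eWAT and 0.0654 in iWAT, and 2, 0, 0 and 2 of 4 matched their own number best. With the replicate block, BAT called 0 genes, eWAT minus iWAT in vehicle 6558, and no member's treatment call changed.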
